A study of Mus musculus with 9 samples.

Results

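The ubiquitin-specific proteases (USPs) are the family of cysteine proteases that remove ubiquitin from other proteins. Their transcripts were followed in mouse bone marrow-derived macrophages left untreated, given lipopolysaccharide (LPS), or given the ATP-citrate lyase inhibitor BMS303141 ahead of LPS. Members were taken by name alone, as every listed gene whose symbol is Usp followed by a number and at most 1 small letter. This gave 42 genes of the 12204 listed, and all 42 had values high enough to be tested. The gene name table holds 50 such symbols; the other 8 (Usp9y, Usp13, Usp26, Usp29, Usp43, Usp44, Usp49 and Usp51) were not analysed here.

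The cells came from the marrow of C57/Bl6J mice and were grown into macrophages over 6 days in medium with 20% supernatant of L929 cells. One group of 3 libraries was the untreated control, 3 libraries had 10 ng/ml LPS for 4 h, and 3 had 50 µM BMS303141 for 1 h and then 10 ng/ml LPS for 4 h. LPS is a bacterial cell wall lipid that activates Toll-like receptor 4. The labels name no vehicle and no group had the inhibitor without LPS, so its effect was seen only on top of LPS. They do not tie replicates to separate mice or cultures, and the p-values therefore cover the spread between libraries, which may be technical.

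Ubiquitin is attached to proteins by ligases and cut off again by deubiquitinases, of which the USPs are the largest family. Removing a chain can rescue a protein from the proteasome or switch off a signalling complex, and in macrophages ubiquitin chains carry the signal from Toll-like receptors to NF-kB and to interferon induction. Usp18 is the exception in the family: it removes the ubiquitin-like protein ISG15, and it also binds the interferon receptor chain Ifnar2 and damps type I interferon signalling.

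LPS replicate 1 stood apart from the other libraries and was the shallowest. Depth, estimated from the value steps, was about 1800000 reads there and up to 4910000 in the other libraries; on the second principal component (9.44% of variance) LPS replicate 1 lay at -63.1 and the other 8 libraries between -18.0 and 26.0. All 8 macrophage markers were listed, with a summed level of 8007 to 8683 CPM (read counts scaled to a common library total) in untreated libraries, 3987 to 4866 with LPS and 4746 to 4830 with the inhibitor and LPS. Markers of other cells were sparse: 2 of 8 neutrophil genes, 1 of 7 lymphocyte genes, 1 of 5 dendritic cell genes, 1 of 5 mast cell genes, 4 of 6 stromal genes and 0 of 5 erythroid genes were listed. The 2 neutrophil genes, S100a8 and S100a9, summed to 7.81 to 29.6 CPM untreated, 33.9 to 60.9 with LPS and 172 to 264 with the inhibitor, while Ly6g, Camp, Ltf, Mpo, Elane and Ngp were not among the listed genes. The mast cell gene Hdc, which activated macrophages also express, was at 2.21 to 2.59, 106 to 118 and 60.5 to 77.2 CPM. The stromal genes were at 6.09 to 14.0, 13.7 to 23.7 and 6.19 to 13.5 CPM, the dendritic cell gene Itgax at 3.05 to 4.19, 13.5 to 22.5 and 4.77 to 5.36, and the lymphocyte gene Lck at 1.27 to 1.59, 1.56 to 7.53 and 0.651 to 3.17. The part of these markers in the results below was not tested. In bulk RNA, fewer cells of a type and less RNA per cell cannot be told apart.

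Promoter sequences were looked at for sites of the factors that LPS activates. RefSeq promoters (GRCm38.p6, 250 bases before to 50 after the start site) were at hand for 32 of the 42 members, of which 9 were called higher and 7 lower after LPS. The interferon-stimulated response element core (GAAA, 2 bases of any kind, GAAA) was in 0 of the 32, against 3.44% of all 32851 promoters. The NF-kB type motif (GGG, 2 bases of any kind, TTTCC) was likewise in 0, against 1.63%. The AP-1 type motif TGANTCA, a palindrome when read on both strands, was in 4 (12.5%), against 7.81% of all. They were Usp31 (TGAATCA, at position -112 from the start site), Usp38 (at -218), Usp50 (at 28) and Usp10 (TGAGTCA, at 44); Usp31 and Usp10 were called higher after LPS and the other 2 were not called. These letters are matches and not shown to be bound. No promoter entry was at hand for Usp18 or Usp53.

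The sequences shown are those of the 3 members with an LPS change of at least 2-fold whose 120 bases ahead of the RefSeq start held no annotated exon, 1 that rose (Usp10) and 2 that fell (Usp2 and Usp35). They are written 5′ to 3′ along the gene. None of these windows holds a match (that of Usp10 lies after its start site), so none has capitals. Usp10 lies on the plus strand of chr8:119910240-119910359, Usp2 on the plus strand of chr9:44084800-44084919 and Usp35 on the minus strand of chr7:97332110-97332229. The Usp2 window lies inside the gene as GENCODE annotates it: the RefSeq start used is at 44084920, and the GENCODE gene starts at 44067021.

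Usp10: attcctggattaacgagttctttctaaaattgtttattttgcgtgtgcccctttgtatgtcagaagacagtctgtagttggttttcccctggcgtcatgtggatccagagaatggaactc

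Usp2: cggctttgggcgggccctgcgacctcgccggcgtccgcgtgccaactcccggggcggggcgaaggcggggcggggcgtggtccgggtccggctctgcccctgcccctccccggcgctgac

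Usp35: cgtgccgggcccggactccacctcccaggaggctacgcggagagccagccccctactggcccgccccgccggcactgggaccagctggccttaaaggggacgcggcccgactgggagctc

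Transcript levels of the family spanned a wide range. Values are the deposited log2 CPM of 3′ end reads, which count transcripts without regard to their length. The mean over the 9 libraries had a median of 4.89 over the 42 members and of 3.80 over all listed genes. The highest means were those of Usp9x (7.79), Usp50 (7.38) and Usp7 (7.25), and the lowest those of Usp54 (1.31), Usp11 (1.01) and Usp27x (0.92). Usp9x, a large X-linked enzyme, and Usp7, which acts on the p53 ligase Mdm2, are broadly expressed. The value of Usp50 is uncertain: its longest transcript ends inside the Usp8 gene on the opposite strand, and 204 bases of its end (13.1% of the exon bases within 500 bases of its transcript ends) coincide with the processed pseudogene Gm10774 on its own strand. Summed over the family, the libraries held 2162 to 2231 CPM untreated, 2152 to 2344 with LPS and 2020 to 2093 with the inhibitor and LPS, 0.204% to 0.237% of the total. The family total thus stayed within a narrow range while single members moved in both directions. Within that range the inhibitor libraries lay below every untreated and LPS library, a difference that was not tested.

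**Figure D1:**
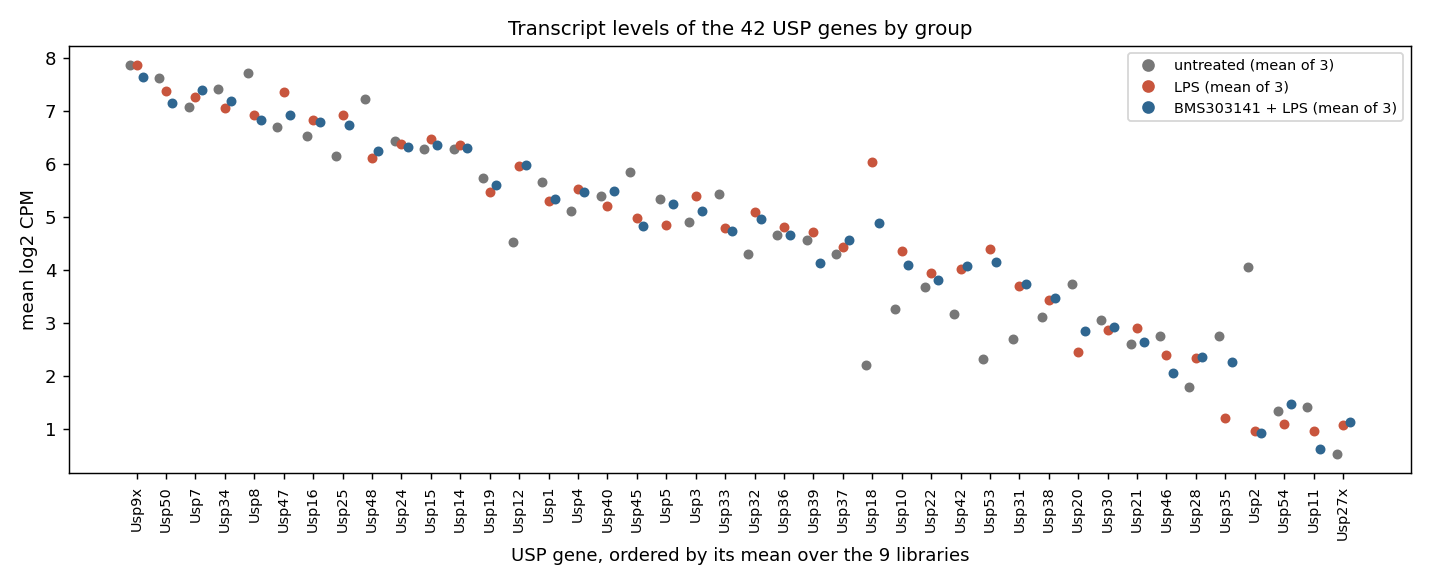
Mean log2 CPM of each of the 42 USP genes (y axis) in the untreated, LPS and BMS303141 + LPS groups, with genes ordered by their mean over the 9 libraries (x axis); each point is the mean of 3 libraries. Usp9x is at the top with 7.79 and Usp27x at the bottom with 0.92, and Usp18 and Usp2 have the widest gaps between untreated and LPS.

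LPS changed 20 of the 42 USP transcripts, 12 upward and 8 downward, and 9 of them at least 2-fold. Usp18 rose most, 14.1-fold, followed by Usp53, Usp12, Usp10 and Usp31. Usp2 fell most, 8.53-fold, followed by Usp35, Usp20 and Usp48. Calls required a limma adjusted p below 0.05, with Benjamini-Hochberg adjustment over 12196 genes. The calls made up 28.6% of members higher and 19.0% lower, beside 21.5% higher and 25.4% lower among all genes tested, so the shares were near the background. The median change was 0.13 over the members and -0.06 over all genes, and the median size of change 0.44 and 0.60. The 22 members not called lay between -0.49 and 0.55, and 17 of them had a 95% interval within 2-fold in either direction. Without LPS replicate 1 the counts were 13 higher and 9 lower, with Usp38 and Usp50 added and none lost.

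**Figure D2:**
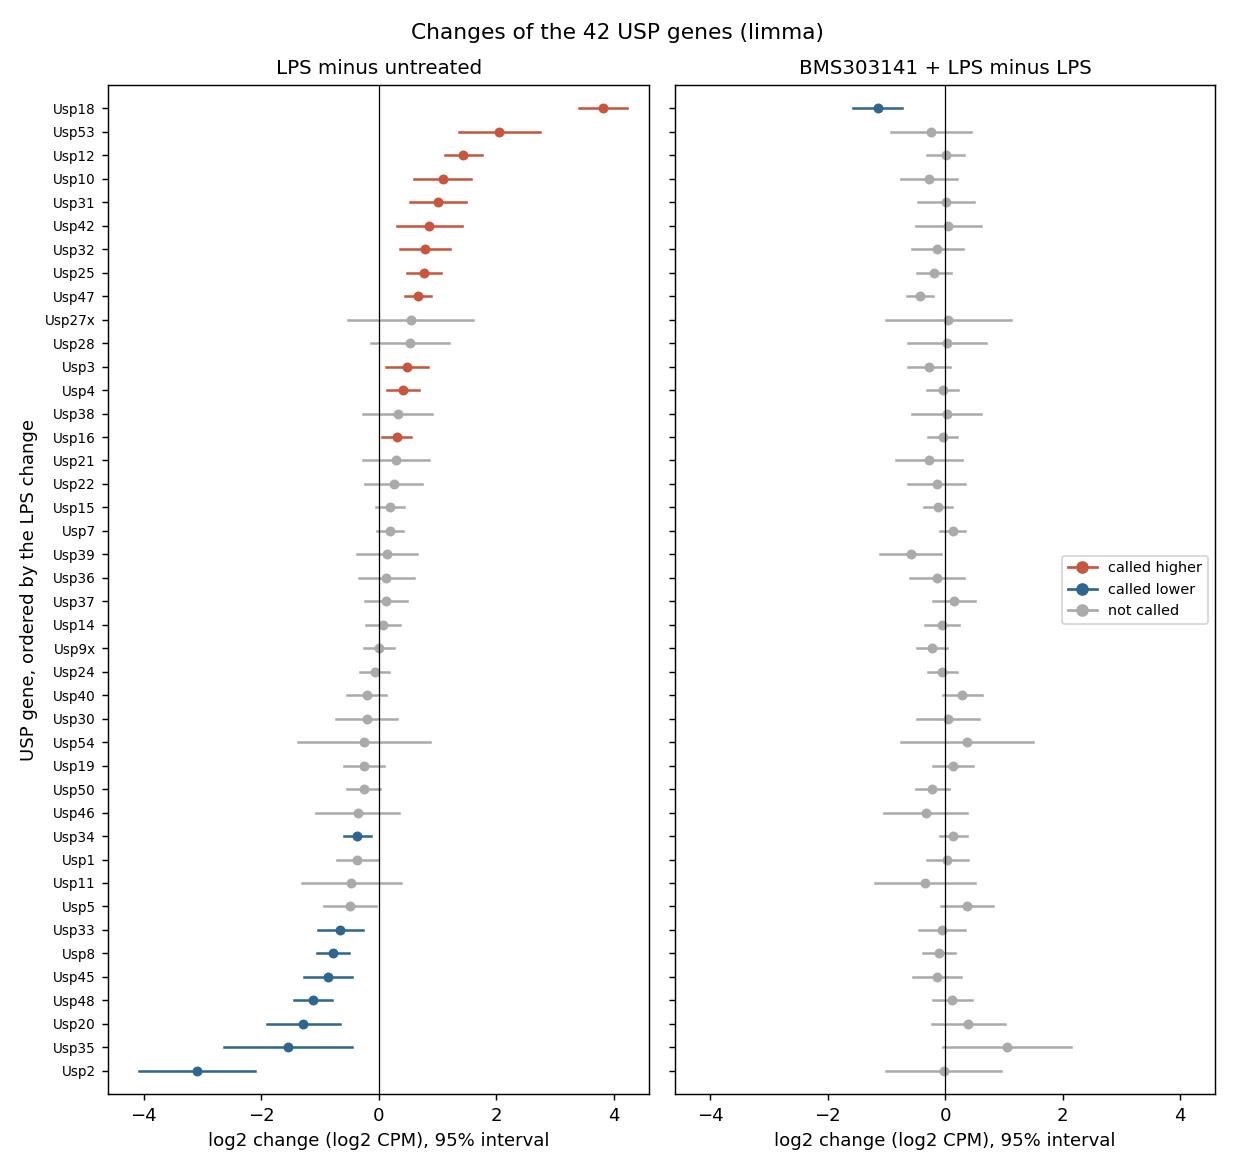
log2 change with its 95% interval (x axis) for each of the 42 USP genes (y axis, ordered by the LPS change), for LPS minus untreated on the left and BMS303141 + LPS minus LPS on the right, coloured by the limma call at adjusted p under 0.05. On the left 12 genes are called higher and 8 lower; on the right Usp18 is the 1 called gene.

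Among the 12 members listed for interferon and innate immune signalling, 5 rose and 2 fell after LPS, beside 21.5% higher and 25.4% lower among all genes tested; their median change was 0.31. Usp18 (ENSMUSG00000030107, chromosome 6, 121245906 to 121270917, plus strand, GRCm38) was at 2.19, 2.51 and 1.96 log2 CPM in the untreated libraries, at 6.02, 6.14 and 5.95 with LPS, and at 4.84, 5.16 and 4.67 with the inhibitor and LPS. The untreated libraries were the low ones, the LPS libraries the high ones, and the groups did not overlap. Its rise of 3.82 (SE 0.19, adjusted p = 2.36e-09, limma) held rank 234 among the rises of the 12196 genes. Within 500 bases of its transcript ends, 6.85% of exon bases overlap the antisense gene Gm44148, and the strand setting of the counting is not given in the sources used here.

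Usp10, which binds G3bp1 and stabilises p53, was at 3.45, 3.06 and 3.30 log2 CPM untreated, 4.02, 4.63 and 4.44 with LPS, and 3.85, 4.44 and 3.98 with the inhibitor. Every treated library lay above the untreated ones. It rose by 1.09 (SE 0.22, adjusted p = 0.00129, limma). Usp31, a less studied member linked to NF-kB, was at 2.54, 2.95 and 2.62 untreated, 3.65, 3.64 and 3.85 with LPS, and 3.40, 3.84 and 3.96 with the inhibitor. Again no treated library reached down to the untreated range, and the rise was 1.01 (SE 0.22, adjusted p = 0.00209, limma). Usp25, which acts on TRAF proteins below Toll-like receptors, rose by 0.78 (SE 0.14), and Usp4 by 0.42 (SE 0.13). The call of Usp4 ended when LPS replicate 3 was dropped (adjusted p = 0.0612, limma).

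Usp2, known for stabilising cyclin D1 and for its daily rhythm in many tissues, went the other way. It was at 3.45, 4.23 and 4.51 log2 CPM in untreated libraries, at 1.75, 0.85 and 0.31 with LPS, and at 0.83, 1.69 and 0.31 with the inhibitor. All 6 treated libraries were far below the untreated ones. Usp2 fell by 3.09 on the log2 scale (SE 0.46, adjusted p = 9.31e-05, limma), rank 173 among all falls. The treated values were between 3 and 11 value steps above the lowest value of their library, which corresponds to a few reads, so the size of this fall is imprecise. Usp20, which stabilises the sterol synthesis enzyme HMG-CoA reductase, was at 3.59, 3.49 and 4.14 untreated, 3.02, 2.07 and 2.29 with LPS, and 2.63, 2.93 and 3.00 with the inhibitor. The treated libraries were all lower. With LPS they were 13, 11 and 14 value steps above the lowest value of their library. Usp20 fell by 1.28 on the log2 scale with LPS (SE 0.29, adjusted p = 0.00252, limma), a size that is imprecise here too. Its close relative Usp33, listed with the membrane and organelle genes, fell by 0.65 (SE 0.18); 37.0% of the exon bases near its ends overlap antisense genes. The other 5 genes of this list, Usp11, Usp15, Usp21, Usp38 and Usp50, did not pass the test.

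Of the 8 members listed for chromatin and histones 4 rose and 1 fell, with a median change of 0.40, beside the same 21.5% higher and 25.4% lower among all genes. Usp12, which works with the activator Wdr48, was at 4.72, 4.46 and 4.42 log2 CPM untreated, 5.80, 6.20 and 5.91 with LPS, and 6.07, 5.93 and 5.95 with the inhibitor. The 6 treated libraries formed a tight set more than 1 log2 unit above the untreated ones. The rise was 1.44 (SE 0.15, adjusted p = 3.16e-06, limma). Its paralog Usp46 was at -0.36 (95% interval -1.06 to 0.35), which did not pass. Usp42 rose by 0.87 (SE 0.26), Usp3 by 0.49 (SE 0.17) and Usp16, a histone H2A deubiquitinase, by 0.31 (SE 0.11). The last was the weakest call of the family (adjusted p = 0.0420, limma), and it ended in 11 of 18 alternatives, 7 of them fits with 1 library dropped (highest adjusted p 0.139). Usp3 also missed the threshold when LPS replicate 2 or 3 or untreated replicate 1 or 2 was dropped (highest adjusted p of its alternatives 0.113, limma). Usp42 did so when LPS replicate 2 or untreated replicate 3 was dropped (highest 0.0634).

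Usp48, a nuclear enzyme that acts on histone H2A, fell. It was at 7.13, 7.30 and 7.27 log2 CPM untreated, 6.45, 5.79 and 6.10 with LPS, and 6.26, 6.15 and 6.30 with the inhibitor. None of the treated libraries reached the untreated range, and with LPS it fell by 1.12 on the log2 scale (SE 0.15, adjusted p = 4.53e-05, limma). Usp22, the deubiquitinase of the SAGA coactivator complex, was at 0.26 (95% interval -0.23 to 0.75) and did not pass. Neither did Usp27x, a relative of Usp22, at 0.55 (-0.51 to 1.61).

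The other lists are shorter, and no difference between roles was tested. Here too the counts after LPS stand beside 21.5% higher and 25.4% lower among all genes tested. Of 7 members listed for DNA repair and the cell cycle, Usp47, which acts in base excision repair, rose by 0.67 (SE 0.10), and Usp45, which acts on the repair nuclease subunit Ercc1, fell by 0.87 on the log2 scale (SE 0.19). Of 6 members at membranes and organelles, Usp32 rose by 0.79 (SE 0.20). Usp8, which deubiquitinates receptors at endosomes, fell by 0.78 (SE 0.13), and Usp33 fell as given above. Usp9x (0.01, 95% interval -0.26 to 0.27), the ER-anchored Usp19 and the mitochondrial Usp30 did not pass. Nor did the proteasome-bound Usp14 (0.07, -0.22 to 0.36), Usp5 (-0.49, -0.93 to -0.04, adjusted p = 0.0674, limma), which takes apart free ubiquitin chains, the nucleolar Usp36 or the splicing factor Usp39.

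Among the 5 remaining members 1 rose and 2 fell, beside the same 21.5% higher and 25.4% lower among all genes. Usp53, known for its link to tight junctions, was at 2.58, 1.74 and 2.68 log2 CPM untreated, 4.96, 4.46 and 3.75 with LPS, and 4.40, 4.01 and 4.02 with the inhibitor. All treated libraries were above the untreated ones, although the LPS libraries were spread over more than 1 log2 unit. The rise was 2.06 (SE 0.32, adjusted p = 0.000133, limma), or 4.16-fold. Usp35 was at 2.42, 3.28 and 2.54 untreated, 2.54, 0.45 and 0.64 with LPS, and 2.84, 2.10 and 1.83 with the inhibitor. LPS replicate 1 lay inside the untreated range while the other 2 LPS libraries were far below it, so the groups overlapped. It fell by 1.54 on the log2 scale (SE 0.51, adjusted p = 0.0233, limma), and by 2.21 with LPS replicate 1 left out. The LPS values were 9, 3 and 4 value steps above the lowest of their library, so the size of this fall is imprecise too, and Usp35 was not among the genes kept by a filter of 10 CPM. Dropping LPS replicate 2, LPS replicate 3 or untreated replicate 2 ended the call (highest adjusted p 0.104, limma). Usp34, a very large member, fell by 0.36 (SE 0.11). That call did not hold when LPS replicate 3 or untreated replicate 2 was dropped, or with centring on ribosomal protein genes (highest adjusted p of the alternatives 0.201, limma), and 40.3% of the exon bases near its ends overlap the antisense gene Ahsa2.

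**Figure D3:**
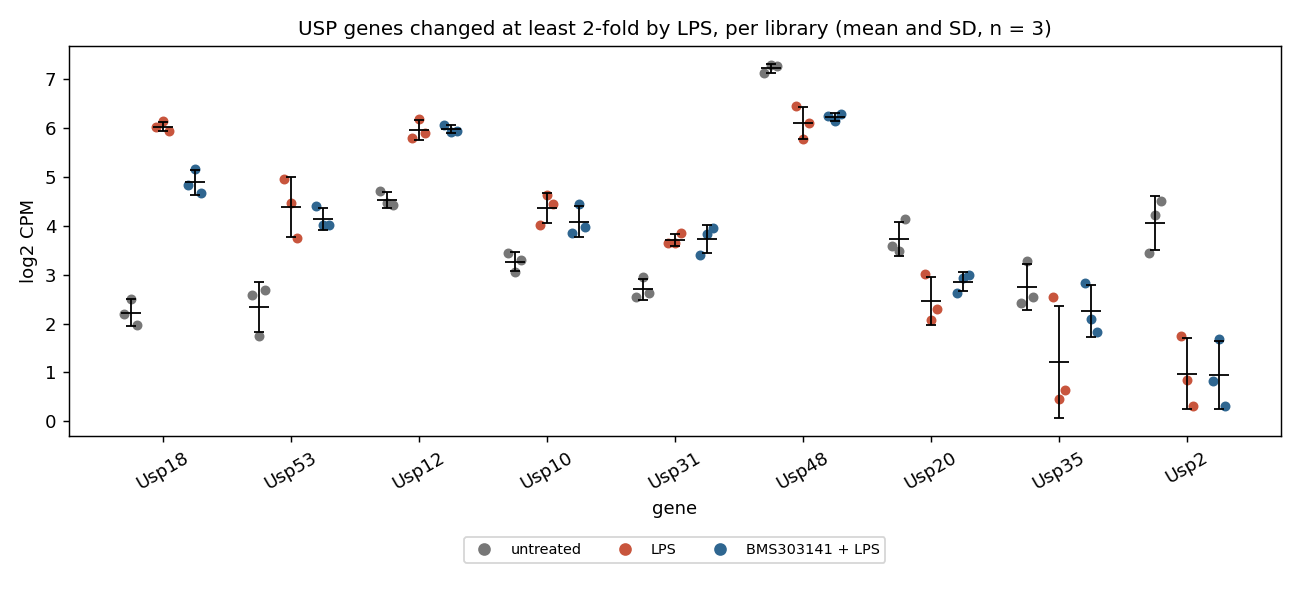
log2 CPM (y axis) in each library of the 9 USP genes that LPS changed at least 2-fold (x axis), 1 point per library in its group colour; bars are means and SDs (n = 3). Usp18 goes from a mean of 2.22 to 6.04 with LPS and 4.89 with BMS303141 + LPS, while for Usp12 the LPS and inhibitor groups lie at 5.97 and 5.98.

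BMS303141 given ahead of LPS changed 1 of the 42 USP transcripts relative to LPS alone. Usp18 was lower by 1.15 on the log2 scale (SE 0.19, 95% interval -1.56 to -0.74, adjusted p = 0.00843, limma), a 2.22-fold difference, in the 3 libraries against 3 given above, which did not overlap. That is 2.38% of members lower and 0% higher, beside 1.16% lower and 0.959% higher among all genes tested, so the count was near the background. Dropping inhibitor replicate 1 or 3 ended the call (highest adjusted p 0.0713, limma), and dropping LPS replicate 1 did not. The calls over all genes went from 117 higher and 141 lower to 32 and 47 without inhibitor replicate 1. Without inhibitor replicate 3 they were 27 and 35. Over all fits with 1 library dropped, the Usp18 change ran from -1.28 to -1.04. No member was called higher by limma. At an unadjusted p under 0.05 (limma) there were 3 members, all lower. The share of all genes at that looser threshold was not taken, so this count is not read as a result about the family.

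Beside Usp18, the other 2 members at an unadjusted p under 0.05 were Usp47 and Usp39. Usp47 was at 7.43, 7.31 and 7.32 log2 CPM with LPS and at 7.02, 6.85 and 6.91 with the inhibitor, against 6.75, 6.68 and 6.64 untreated. The inhibitor libraries thus lay between the other groups without overlap, and the difference from LPS of -0.43 (95% interval -0.65 to -0.20) missed the threshold (adjusted p = 0.0540, limma). It passed when genes under 10 CPM were left out of the test and when libraries were weighted. Over all genes the filter gave 138 higher and 156 lower and the weights 407 and 407, against 117 and 141 as reported. Usp39, a spliceosome protein that lacks protease activity, was at 5.19, 4.37 and 4.59 with LPS and at 3.85, 4.34 and 4.19 with the inhibitor, with a difference of -0.59 (-1.10 to -0.08, adjusted p = 0.263, limma).

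For most of the family the inhibitor data bound the change to within 2-fold. Of the 41 members not called, 33 had a 95% interval within 2-fold in either direction, and 21 had one within 1.5-fold. The median change was -0.05 over the members and 0.00 over all genes, and the median size 0.14 and 0.24. Usp12 was at 0.01 (95% interval -0.31 to 0.33), Usp48 at 0.12 (-0.21 to 0.45), Usp31 at 0.02 (-0.46 to 0.50), Usp10 at -0.27 (-0.76 to 0.21) and Usp53 at -0.24 (-0.93 to 0.44). Usp2 was at -0.03 (-1.01 to 0.96) and Usp20 at 0.40 (-0.23 to 1.02), too wide to bound a 2-fold change. Usp35 had the largest difference upward, 1.06 (-0.04 to 2.15, adjusted p = 0.357, limma). It rested on how LPS replicate 1 is treated: without that library it was 1.72 and called (adjusted p = 0.0381, limma).

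Set against untreated cells, the group with both agents had 10 members higher and 7 lower, 23.8% and 16.7% of the family, beside 21.5% and 25.6% of all genes. This comparison shares libraries with the other 2, and its values are given side by side only. Usp18 was 2.67 above untreated with both agents and 3.82 with LPS alone, Usp12 1.45 and 1.44, Usp53 1.81 and 2.06, Usp10 0.82 and 1.09, and Usp31 1.03 and 1.01. Downward, Usp2 was at -3.12 with both agents and -3.09 with LPS alone, Usp45 at -1.01 and -0.87, Usp8 at -0.88 and -0.78, Usp20 at -0.88 and -1.28 and Usp35 at -0.49 and -1.54. Usp7 (0.32, SE 0.10) and Usp50 (-0.48, SE 0.13) were called with both agents and not with LPS alone, but neither differed by its own test between the groups given LPS with and without the inhibitor (adjusted p = 0.593 and 0.461, limma). The Usp7 call ended when untreated replicate 3 or inhibitor replicate 1 or 3 was dropped. It also ended without a mean trend in the variance model (highest adjusted p of its alternatives 0.190, limma). Centring on ribosomal protein genes ended the calls of Usp4, Usp7, Usp32 and Usp50 (adjusted p = 0.0514 for Usp50, limma). The calls of Usp4, Usp10, Usp20 and Usp32 each ended with at least 1 library dropped.

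The ISG15 pathway, in which Usp18 removes what the other members attach, was measured beside it. All 10 listed genes were tested, and after LPS 8 rose and 0 fell (median 0.82, against -0.06 over all genes, of which 21.5% rose and 25.4% fell). Isg15, the modifier itself, went from 3.84 ± 0.52 to 8.50 ± 0.39 log2 CPM (SD, n = 3), a rise of 4.66 (SE 0.24). Herc6, the ligase, rose by 2.31 (SE 0.18), and Ube2l6, the conjugating enzyme, went from 1.86 ± 0.20 to 3.36 ± 0.61 log2 CPM (SD, n = 3). The activating enzyme Uba7 (0.14, SE 0.32) and the ligase Trim25 (-0.10, SE 0.13) did not pass. With the inhibitor 2 of 10 were lower than with LPS alone and 0 higher, beside 1.16% lower and 0.959% higher among all genes tested. These 2 were Herc6 at -0.88 (SE 0.18, adjusted p = 0.0190, limma) and the interferon signalling factor Stat2 at -0.86 (SE 0.16, adjusted p = 0.0148, limma). The fits that dropped 1 library, some of which ended the Usp18 call, were not examined for these genes. The median of the 10 was -0.51, against 0.00 over all genes. Isg15 was at -0.36 (95% interval -0.89 to 0.16), Irf9 at -0.53 (adjusted p = 0.0540, limma) and Ifnar2, the receptor chain that Usp18 binds, at 0.36 (0.07 to 0.64, adjusted p = 0.223, limma), none of which passed.

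**Figure D4:**
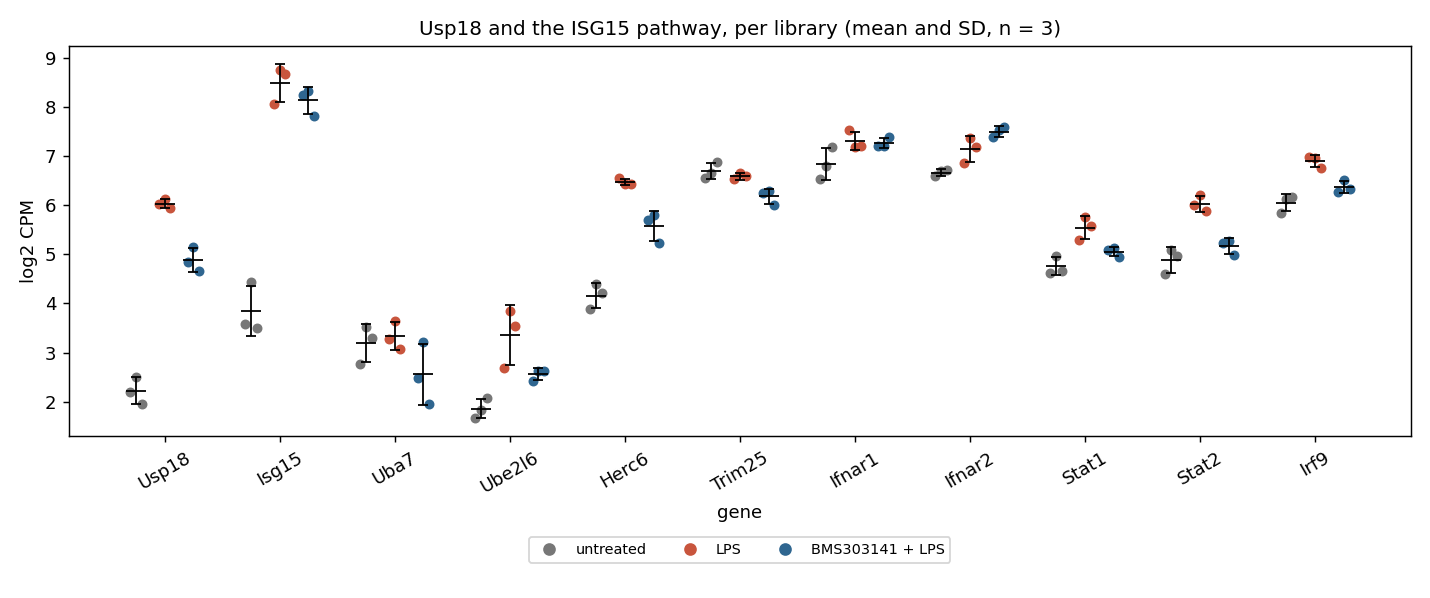
log2 CPM (y axis) in each library of Usp18 and 10 genes of the ISG15 pathway (x axis), 1 point per library in its group colour; bars are means and SDs (n = 3). Isg15 lies at 8.50 with LPS and 8.14 with BMS303141 + LPS, and Stat2 at 6.04 and 5.17.

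Partner proteins of USPs and deubiquitinases of other families moved in both directions. Their counts after LPS stand beside 21.5% higher and 25.4% lower among all genes. Of 14 tested USP partners 4 rose and 1 fell: G3bp1, the partner of Usp10, rose by 0.68 (SE 0.13), Atxn7 of the Usp22 module by 0.62 (SE 0.16), and G3bp2 fell by 0.55 on the log2 scale (SE 0.14). Wdr48, the activator of Usp1, Usp12 and Usp46, rose by 0.35 (SE 0.13). Of 35 tested deubiquitinases outside the USP names 9 rose and 8 fell, near those shares, with a median change of 0.05. Tnfaip3 (A20), the inducible brake on NF-kB, rose by 5.56 (SE 0.21) and Uchl1 by 1.01 (SE 0.22), while Mindy2 fell by 1.72 (SE 0.32) and Otud1 fell by 1.60 (SE 0.47). With the inhibitor 0 of the 14 partners were called and 1 of the 35 deubiquitinases was lower, Zup1 (-0.67, SE 0.14, adjusted p = 0.0244, limma). Among all genes tested 1.16% were lower and 0.959% higher in that comparison, so these counts were near the background. The Zup1 call was not followed through the alternative fits. Of 5 tested genes for ubiquitin and its activating enzymes, Uba1 rose after LPS by 0.63 (SE 0.12), and none was called with the inhibitor.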

How the data were processed

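QuantSeq 3′ mRNA libraries were made from 100 ng of RNA with 16 PCR cycles, per the labels' protocols. Among the tools in the submitters' processing notes are edgeR, limma, MultiQC, featureCounts 1.5.1 and STAR 2.5.2b, with the build GRCm38 (mm10). The sources used here give no annotation release, strand setting or gene filter. The deposited values are scores in log2 CPM, quantile-normalised by the authors, as read from the values, whose powers of 2 sum to 987472 to 987498 in each library. Such scaling hides a change shared by most transcripts. Depth was estimated from the spacing of value steps 5 to 40, about 1800000 to 4910000 reads, and limits low genes.

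Identifiers matched a symbol in 12181 of 12204 cases. Genes at log2 CPM 0 or more in at least 3 libraries were tested (12196) with limma 3.58.1 in R 4.3.3 (group means, mean trend, two-sided, Benjamini-Hochberg over all tested genes). The code was also run on simulated data with known changes in 200 genes. That simulation held no outlying library and no differences in depth, so it does not bear on the calls. SE is the moderated standard error and differences are on the log2 CPM scale. Members with similar sequences may share reads. Named members were those called with the inhibitor or changed at least 2-fold by LPS, and the highest and lowest by level; companion lists gave the 2 largest called changes in each direction, and others were named after their values were seen. Members and lists were chosen with earlier results of these data known. Alternatives were a replicate block, other filters, scalings and variance models, a minimum change of 2-fold, and fits that dropped 1 library each. For single genes they were examined in USP members only.

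Gene positions and exon overlaps come from GENCODE M21, promoters from RefSeq.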

Additional observations from a re-analysis of the deposited data

How the results depend on the processing

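Each value is a count of USP genes called by limma or a log2 change. Leaving out a library in turn gave 9 to 13 genes higher and 6 to 10 lower for LPS against untreated, 0 to 1 higher and 0 to 1 lower for the inhibitor against LPS, and 7 to 12 higher and 6 to 8 lower for both agents against untreated. With a 2-fold minimum the counts were 5 and 4 for LPS, and 4 and 2 for both agents. With weights per library the inhibitor comparison had 1 higher (Usp35) and 2 lower (Usp18 and Usp47), and with a filter of 10 CPM, which tested 7915 genes, 2 lower. The weights also raised the inhibitor calls over all genes from 117 higher and 141 lower to 407 and 407. The other counts of USP genes stayed within 1.5 times of the reported ones. Of the LPS calls, those of Usp16, Usp33 and Usp34 were lost with centring on 81 ribosomal protein genes, which also moved the split of all genes for the inhibitor from 117 higher and 141 lower to 49 and 108.

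Some inhibitor differences that were never called changed sign. Usp12 was at -0.0846 with ribosomal protein centring and between -0.0746 and 0.127 over the fits without a library. Usp31 was at -0.0751 with ribosomal protein centring and -0.0761 with weights, and between -0.0920 and 0.186 over those fits. With weights Usp2 was at 0.42 and Usp53 at 0.20; without a library they ran from -0.40 to 0.36 and from -0.564 to 0.0441, and Usp48 from -0.0440 to 0.290. The cause was not tested.

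Correlations of same-numbered deviations from the group means ran from -0.297 to 0.165 and those of differently numbered ones from -0.215 to 0.294. With 3 libraries per group these values cannot decide whether the replicate numbers pair the libraries. With the replicate number as a block there were 11 genes higher and 8 lower for LPS, 0 and 1 for the inhibitor and 10 and 7 for both agents; Usp16 was the 1 call lost.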
